A study of Mus musculus with 24 samples.

Results

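The interferon-inducible p200 family of DNA sensors was followed in CD45+ cells from mouse breast tumors. The members were selected by gene symbol from the HIN-200 cluster of mouse chromosome 1. They were Aim2, Ifi203, Ifi204, Ifi205, Ifi207, Ifi208, Ifi209, Ifi213, Mnda and Mndal. Of the 10 symbols, 9 had a row among the 16996 genes of the normalized expression table, and Mnda had none. In RefSeq, Mnda is an older symbol of Ifi211, which had a row of its own and was not counted as a member. The family was picked with earlier results of these data known, and which measured values led to that choice is not recorded. The adjusted p-values below are therefore given as a description of the members and not as independent evidence.

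RNA was sequenced from 24 tumors, 6 for each of 4 groups, 1 library per mouse. EMT6-hHER2 is a single-cell-sorted clone of the mouse breast cancer line EMT6 that carries human HER2 on a PiggyBac transposon, and it was injected into the mammary fat pad of female WT Balb/c mice at 8 to 10 weeks of age. At a tumor volume of 80 mm3 the mice received a single intravenous injection of T-PNU at 1 mg/kg, T-DM1 at 15 mg/kg or trastuzumab at 20 mg/kg, or no treatment, and at day 10, at an age of 10 to 12 weeks, the tumors were digested and CD45+ cells were enriched with beads. Trastuzumab is an antibody against human HER2, T-PNU is trastuzumab carrying an anthracycline derivative, and T-DM1 is trastuzumab carrying the maytansinoid DM1, which blocks microtubules. T-PNU and T-DM1 differed in dose as well as in payload, so the payload and the dose cannot be told apart. According to the study, tumors of the T-PNU group were smaller at harvest than at treatment, whereas trastuzumab and T-DM1 did not prevent tumor growth. Tumor size at harvest therefore cannot be told apart from treatment in the comparisons with T-PNU. The column headers carry a further number, which runs in a separate series for the untreated group. What it stands for is not stated, and whatever it marks cannot be told apart from treatment in comparisons with untreated mice. The 3 comparisons with the untreated group used the same 6 control libraries. In bulk RNA of this kind, fewer cells of a type and less RNA per cell cannot be told apart.

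The p200 proteins are named after their HIN domain, a fold that binds double-stranded DNA, which in most of them follows an N-terminal pyrin domain. Aim2 senses DNA in the cytosol and binds the adaptor ASC (Pycard), which recruits caspase-1 into an inflammasome that processes IL-1β and IL-18. Many of the others reside in the nucleus and are known as interferon-induced regulators of transcription in macrophages and other leukocytes. The promoters of interferon-induced genes commonly hold an interferon-stimulated response element.

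The members lie on chromosome 1 of GRCm38 between positions 173350879 and 174031810, a stretch of 681 kb that holds 21 annotated genes in GENCODE M21. Aim2 (173350879 to 173466040), Ifi209 (173630917 to 173647928) and Ifi208 (173673675 to 173698395) are on the plus strand. Ifi213 (173566283 to 173599274), Ifi207 (173723427 to 173741747) and Ifi204 (173747293 to 173766943) are on the minus strand. Mndal (173849126 to 173942491), Ifi203 (173920407 to 173942672) and Ifi205 (174011998 to 174031810) are also on the minus strand. The Mndal model spans Ifi211 and overlaps Ifi203, and 4.27% of its exon bases overlap exons of Gm38050 or Ifi203 on its strand. Because these genes arose as copies of each other, reads can match more than 1 of them. Among all 81-base windows of each gene's transcripts, the read length used, the share also found in another gene was 0% for Aim2, 2.26% for Ifi207, 4.75% for Ifi203, 6.77% for Ifi213, 9.73% for Mndal, 10.2% for Ifi208, 12.6% for Ifi204, 16.2% for Ifi205 and 21.3% for Ifi209. The closest partners were Ifi213 and Ifi208 for each other, Ifi214 for Ifi209, and Ifi211 for Ifi204 and Ifi205. How the authors' counting treated reads with several matches is not given in the sources used here.

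Promoter windows from RefSeq (GRCm38.p6), 250 bases before to 50 bases after the start site, were found for 8 of the 9 members with values, and Ifi204 had no entry. Those of Ifi213 and Ifi208 are shown because the windows are nearly the same and the 2 genes differed in opposite directions under T-PNU. Ifi207 and Ifi205 are shown for their different values under T-DM1, and Aim2 as a member without the response element core. All are written 5′ to 3′ on the gene's own strand. Capitals mark a match, on either strand, to the response element core GAAANNGAAA, the gamma-activated site TTCNNNGAA or the PU.1 core GAGGAAG.
Ifi213, chr1:173599223-173599522, minus strand: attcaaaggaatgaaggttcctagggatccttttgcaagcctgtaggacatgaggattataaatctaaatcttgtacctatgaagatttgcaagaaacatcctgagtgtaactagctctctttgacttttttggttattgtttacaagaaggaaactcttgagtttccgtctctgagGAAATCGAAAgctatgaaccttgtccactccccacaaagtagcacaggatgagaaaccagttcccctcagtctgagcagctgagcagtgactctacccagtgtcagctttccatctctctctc
Ifi208, chr1:173673415-173673714, plus strand: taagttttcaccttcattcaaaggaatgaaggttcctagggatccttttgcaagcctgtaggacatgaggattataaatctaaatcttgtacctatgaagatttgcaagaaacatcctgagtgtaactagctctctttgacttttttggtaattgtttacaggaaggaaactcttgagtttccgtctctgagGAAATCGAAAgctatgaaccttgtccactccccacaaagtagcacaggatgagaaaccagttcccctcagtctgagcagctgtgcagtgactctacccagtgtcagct
Ifi207, chr1:173741760-173742059, minus strand: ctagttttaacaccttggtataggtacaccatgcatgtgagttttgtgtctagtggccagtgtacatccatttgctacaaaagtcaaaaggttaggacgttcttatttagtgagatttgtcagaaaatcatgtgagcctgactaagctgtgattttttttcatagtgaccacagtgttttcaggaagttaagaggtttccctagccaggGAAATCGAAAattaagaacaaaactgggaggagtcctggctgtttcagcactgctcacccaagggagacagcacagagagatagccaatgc
Ifi205, chr1:174031706-174032005, minus strand: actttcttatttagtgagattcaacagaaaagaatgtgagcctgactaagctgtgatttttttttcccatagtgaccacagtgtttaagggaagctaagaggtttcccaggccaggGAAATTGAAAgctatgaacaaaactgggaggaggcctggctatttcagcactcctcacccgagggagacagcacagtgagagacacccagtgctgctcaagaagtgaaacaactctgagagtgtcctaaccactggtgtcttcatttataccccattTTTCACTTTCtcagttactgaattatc
Aim2, chr1:173420354-173420653, plus strand: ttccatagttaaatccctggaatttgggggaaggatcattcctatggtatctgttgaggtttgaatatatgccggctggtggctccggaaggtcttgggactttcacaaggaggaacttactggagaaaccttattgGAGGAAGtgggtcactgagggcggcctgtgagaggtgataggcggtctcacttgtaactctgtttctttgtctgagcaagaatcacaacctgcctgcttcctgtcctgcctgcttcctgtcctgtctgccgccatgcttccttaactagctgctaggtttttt
Aligned with overhanging ends left out, the Ifi213 and Ifi208 windows had 282 identical bases of 285 aligned (98.9%), both with the core match GAAATCGAAA. Counted from the start site, the match began at position -73 in Ifi213 and at -58 in Ifi208. The Ifi207 window held the same letters at -41. The Ifi205 window held GAAATTGAAA on its own strand and TTTCACTTTC, the core on the opposite strand. Of the 8 members with a window, 6 held the core in at least 1 of their start sites (Ifi203, Ifi205, Ifi207, Ifi208, Ifi213 and Mndal), compared with 3.44% of 32851 promoter windows of the same length. Aim2 and Ifi209 did not hold these letters in their windows. No member window held the gamma-activated site (8.30% of all windows), and only Aim2 held the PU.1 core (13.6% of all windows). These matches describe the sequence and are not measured sites.

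The values are normalized expression on a log2 scale, made by the authors, from which no read counts were recovered, and the sequencing depth of the libraries is therefore unknown here. After division by the length of all annotated exons, the order of the mean levels per kb over the 24 libraries was Ifi204 (11.7 on the log2 scale per kb), Ifi207 (11.5), Mndal (10.1), Ifi203 (9.58), Ifi209 (9.18), Ifi205 (8.85), Aim2 (8.56), Ifi213 (6.18) and Ifi208 (5.96). The order was the same with the longest transcript as the length. Neighbours in this order were compared within each library. Ifi207 exceeded Mndal, Mndal exceeded Ifi203, and Aim2 exceeded Ifi213 in all 24 libraries, whereas Ifi204 exceeded Ifi207 in 17 of 24, Ifi205 exceeded Aim2 in 17 of 24 and Ifi213 exceeded Ifi208 in 14 of 24. The mean gap was smaller than its SD over libraries for Ifi204 and Ifi207 (0.18 ± 0.24, SD, n = 24), for Ifi205 and Aim2 (0.30 ± 0.58) and for Ifi213 and Ifi208 (0.22 ± 0.96). The order within these pairs therefore varied between libraries.

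Some libraries stood apart. Averaged over the 9 members as the deviation from each gene's mean over all libraries, untreated C1 had the highest value of all 24 (0.47) and untreated B1 the lowest (-0.46), while the other 4 untreated libraries lay between -0.32 and -0.14. C1 was the highest library of all for 4 members and was among the 3 highest for 7. These 2 libraries, with trastuzumab E2 and B3, are absent from the heatmaps of the study, which removed possible outliers without a stated reason for these 4. The study looked for possible outliers by similarity of expression, and whether these 4 were left out on that ground is not stated. If they were, the 20 libraries were chosen from the same values. Results on the 20 are therefore not taken as independent support. In level of Ptprc, the gene of CD45, C1, B1, E2 and B3 ranked 3, 4, 6 and 8 of the 24 libraries. Ranks 1, 2, 5 and 7 were T-PNU libraries (C2, H1, B2 and D2). The 20 libraries thus lack the untreated and trastuzumab libraries nearest to T-PNU in Ptprc. How far this shaped the differences on the 20 was not tested. Each comparison is given over all 24 libraries and over these 20. The 6 T-PNU libraries lay between 0.02 and 0.34, all above the members' average level. Those of trastuzumab lay between -0.21 and 0.09 and those of T-DM1 between -0.27 and 0.43, with H3, C3 and D3 above and E3, F3 and G3 below the average. T-PNU samples G1 and A2, which the study marks as low-responding, had values of 0.25 and 0.15, inside the range of the other 4 T-PNU samples.

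**Figure D1:**
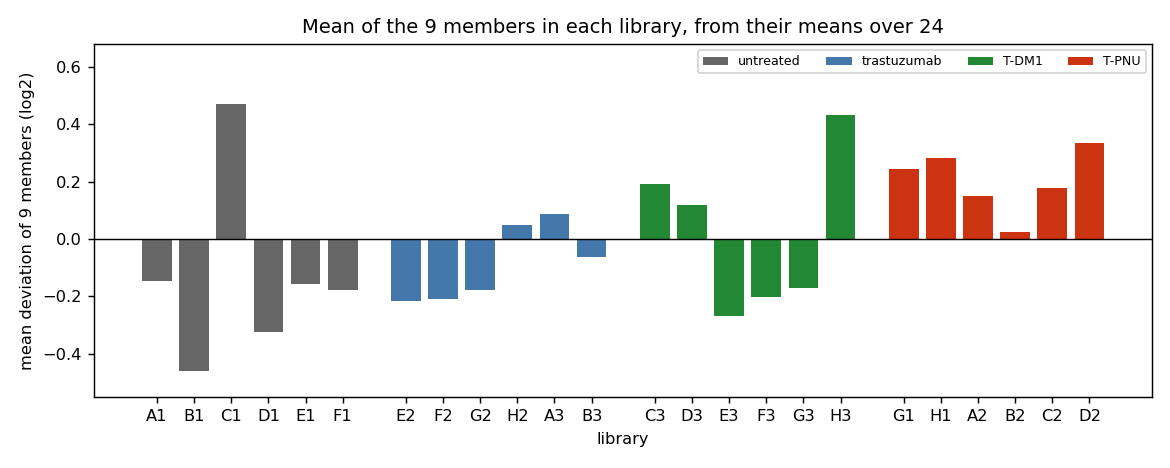
Mean deviation of the 9 members in each library (y axis, log2 units) from their means over 24 libraries, with the libraries on the x axis colored by group. All 6 T-PNU bars are above 0, and untreated C1 (0.47) and B1 (-0.46) are the extremes.

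**Figure D2:**
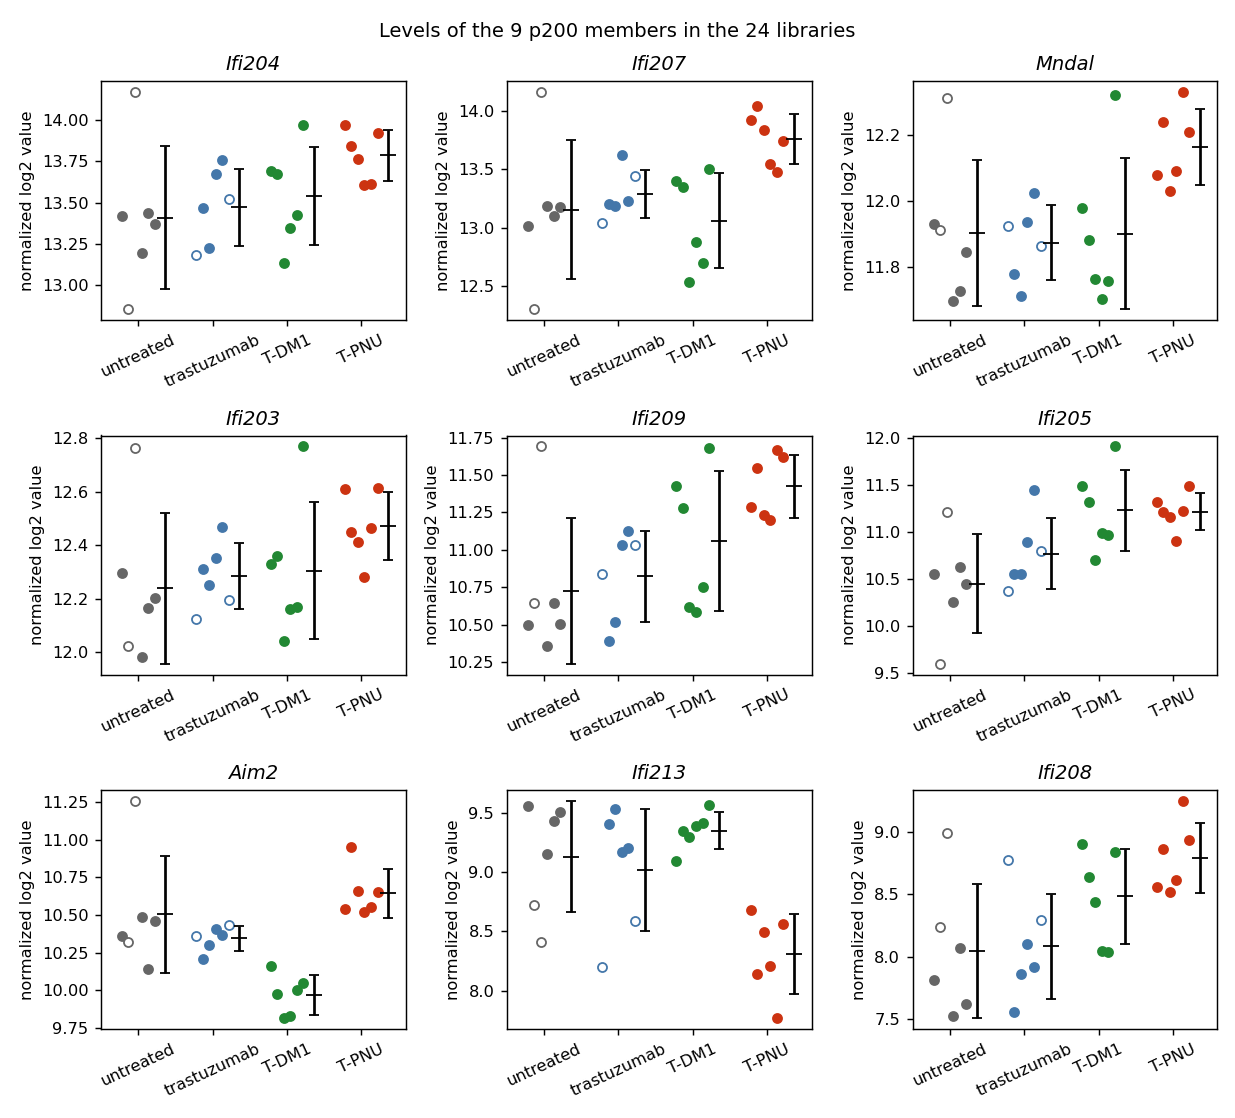
Normalized log2 value (y axis) of each member in each library of the 4 groups (x axis), with the group mean ± SD (n = 6) in black; open symbols are the 4 libraries absent from the study's heatmaps. Ifi213 is the member with its lowest group mean under T-PNU, and Aim2 and Ifi207 have their lowest group mean under T-DM1.

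Relative to untreated mice, 8 of the 9 members were higher on average under T-PNU and Ifi213 was lower, but with all 24 libraries none passed the test (adjusted p under 0.05, limma, Benjamini-Hochberg over 16996 genes; 0.188% of all genes passed in either direction). At an unadjusted p under 0.05, 7 members passed, as did 4218 genes (24.8%). The median log2 difference of the members was 0.38, compared with 0.01 over all genes. Without untreated C1 alone, all 9 passed, 8 upward (7.55% of all genes passed upward) and Ifi213 downward (9.68%). With the 20 libraries, 8 rose (15.3% of all genes) and Ifi213 fell (15.7%). In that set, 7 members lay above every untreated library (8.03% of all genes did) and Ifi213 lay below every one (7.90%). With all 24 libraries and sample weights, which count libraries that vary more for less, 8 passed, all but Aim2 (34.3% of all genes passed in either direction). Without T-PNU G1, 1 member passed, while 221 of the 16996 genes passed upward and 788 downward.

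Ifi205, the interferon-induced macrophage gene first cloned as D3, ranged from 9.60 to 11.21 in untreated libraries (median 10.50) and from 10.90 to 11.49 under T-PNU (median 11.22). Apart from C1, every untreated library was below every T-PNU library. Its difference was 0.77 ± 0.22 (SE; adjusted p = 0.0706), and 0.75 ± 0.20 on the 20 libraries (adjusted p = 0.0112). Ifi208 ranged from 7.52 to 9.0 without treatment (median 7.94) and from 8.52 to 9.25 under T-PNU (median 8.74), a difference of 0.75 ± 0.23 (adjusted p = 0.077). On the 20 libraries it rose by 1.04 ± 0.18 (adjusted p = 0.00266), which is the largest rise among the members in that set. Ifi209 ranged from 10.36 to 11.69 in untreated mice (median 10.58) and from 11.20 to 11.67 under T-PNU (median 11.42). All untreated libraries but C1 were below the lowest T-PNU library. Its difference was 0.70 ± 0.21 (adjusted p = 0.0752) and 0.92 ± 0.20 on the 20 libraries (adjusted p = 0.00485).

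Among the members with the highest levels per length, Ifi207 ranged from 12.30 to 14.16 in untreated mice (median 13.14) and from 13.47 to 14.04 under T-PNU (median 13.79), a difference of 0.60 ± 0.21 (adjusted p = 0.101). Ifi204, a nuclear and cytosolic DNA sensor often set beside human IFI16, ranged from 12.85 to 14.17 without treatment (median 13.39) and from 13.61 to 13.97 under T-PNU (median 13.80), a difference of 0.38 ± 0.16 (adjusted p = 0.161). C1 and B1 were the highest and lowest untreated libraries for both genes. The differences of Mndal (0.26 ± 0.10), Ifi203 (0.23 ± 0.12) and Aim2 (0.14 ± 0.13) were smaller, with adjusted p-values of 0.129, 0.219 and 0.468. On the 20 libraries these 5 rose by 0.64 (Ifi207), 0.43 (Ifi204), 0.37 (Mndal), 0.31 (Ifi203) and 0.28 (Aim2), with adjusted p-values from 0.0105 to 0.0374.

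Ifi213 went the other way. It ranged from 8.41 to 9.56 in untreated mice (median 9.29), from 8.20 to 9.53 under trastuzumab (median 9.18), from 9.09 to 9.57 under T-DM1 (median 9.37) and from 7.77 to 8.68 under T-PNU (median 8.35). The T-PNU libraries were below all T-DM1 libraries, and they overlapped the untreated group only through C1 (8.41) and the trastuzumab group through E2 (8.20) and B3 (8.58), 3 of the 4 libraries absent from the study's heatmaps. The difference from untreated mice was -0.82 ± 0.22 with 24 libraries (adjusted p = 0.0651) and -1.10 ± 0.14 with 20 (adjusted p = 0.000381). Ifi208, whose promoter window is nearly identical, had the opposite order to Ifi213 in the 2 groups. Ifi213 minus Ifi208 within a library was 1.09 ± 0.96 in untreated mice and -0.48 ± 0.57 under T-PNU (SD, n = 6), as a difference of deposited log2 values with no length correction.

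Ifi213 varied with the marker of the enriched cells. Ptprc encodes CD45, the antigen used for the enrichment, and its group medians were 14.46 in untreated, 14.65 in trastuzumab, 14.3 in T-DM1 and 15.05 in T-PNU libraries. Over the 24 libraries, Ifi213 had a Pearson's r of -0.93 (Spearman's rho = -0.88) with Ptprc. The r was -0.90 after removal of the group means and -0.89 without C2 and H1, the libraries farthest from the median of Ptprc. Of the 8 libraries with the lowest Ifi213, 7 were among the 8 with the highest Ptprc. Krt8, a keratin of epithelial cells, and Col1a2, a collagen chain of fibroblasts, had r values of 0.87 and 0.86 with Ifi213. These relations were looked at after the values were seen, all points share the normalization of the table, and no test is given. Over the whole list of 8 tumor and stroma markers, the summed level ranged from 15.00 to 16.22 in untreated, from 15.52 to 16.39 in trastuzumab, from 16.29 to 16.83 in T-DM1 and from 14.56 to 15.91 in T-PNU libraries. The sum was taken on the linear scale, so Col1a2 weighs most in it (mean log2 level 15.16, with Col1a1 next at 13.13). In T-PNU against T-DM1, 4 of these 8 markers were lower (17.4% of all genes were) and 3 higher (12.4%), so the list did not move as 1 group. The part of these cells in the Ifi213 result was not tested.

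**Figure D3:**
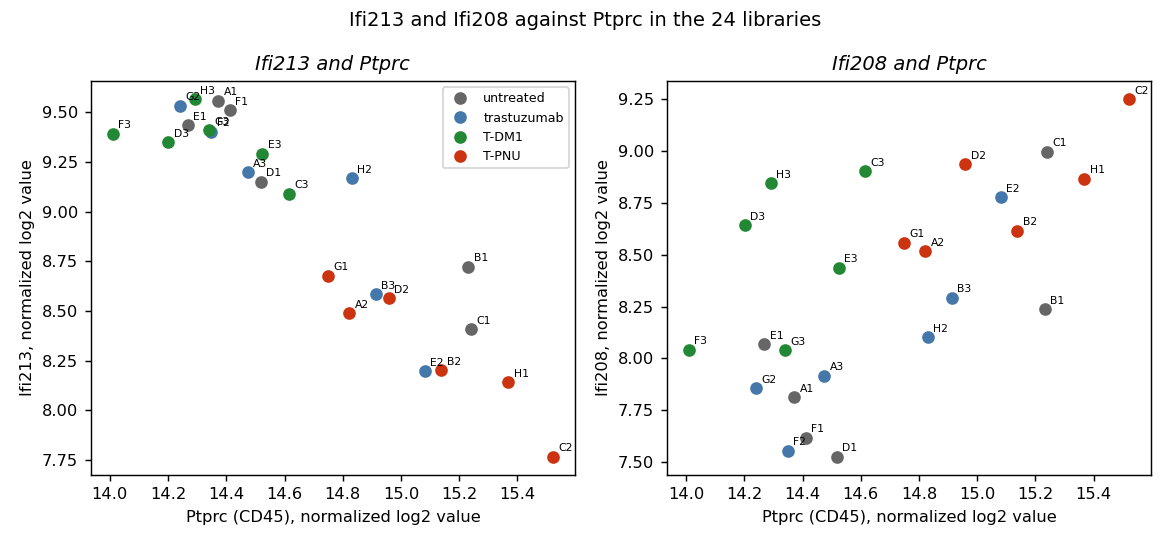
Ifi213 (left) and Ifi208 (right) against Ptprc, the gene of CD45, in the 24 libraries, all axes as normalized log2 values and each point labelled with its library. Ifi213 falls from 9.57 in H3 to 7.77 in C2 as Ptprc goes up (r = -0.93), whereas Ifi208 goes up with it less closely (r = 0.62).

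Under T-DM1 most members did not pass against untreated mice. With 24 libraries, 1 member rose against untreated mice (4.11% of all genes rose) and 1 fell (2.15%). Ifi205 ranged from 10.70 to 11.92 under T-DM1 (median 11.16) and was higher by 0.78 ± 0.22 (adjusted p = 0.0364), close to its difference under T-PNU. This call was lost in 8 of the 12 fits that left out 1 library, with adjusted p-values up to 0.0824. Aim2 ranged from 9.82 to 10.16 under T-DM1 (median 9.99) and from 10.14 to 11.26 in untreated mice (median 10.41), and only untreated E1 (10.14) lay below the highest T-DM1 library. Its difference was -0.53 ± 0.13 (adjusted p = 0.0159), and it kept its call in the 12 fits that left out 1 library of these groups. Aim2 also varied with the composition markers, with r = 0.72 with Ptprc and -0.78 with Krt8 over 24 libraries (0.50 and -0.64 after removal of the group means), and their part in its difference was not tested. Fitted on these 2 groups alone, neither gene passed (adjusted p = 0.0896 for Ifi205 and 0.0679 for Aim2). On the 20 libraries, Ifi205 (0.76 ± 0.20, adjusted p = 0.0494) and Ifi208 (0.73 ± 0.18, adjusted p = 0.0454) rose and Aim2 fell (-0.39 ± 0.09, adjusted p = 0.0356), beside 0.906% of all genes upward and 1.1% downward. With sample weights 4 members passed, Ifi205, Ifi208 and Ifi209 upward and Aim2 downward (19.4% of all genes in either direction). The other members did not pass in either set, and their differences with 24 libraries ran from -0.10 for Ifi207 to 0.44 for Ifi208.

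The contrast of Ifi205 and Aim2 could be read within each library, where it does not depend on the scaling between libraries. Ifi205 minus Aim2 was -0.06 ± 0.41 in untreated, 0.42 ± 0.36 in trastuzumab, 1.26 ± 0.35 in T-DM1 and 0.57 ± 0.23 in T-PNU libraries (SD, n = 6). All T-DM1 libraries (0.89 to 1.87) were above all untreated ones (-0.73 to 0.48) and above all T-PNU ones (0.26 to 0.84). In the same way Ifi205 minus Ifi207 was -1.83 ± 0.15 under T-DM1, compared with -2.71 ± 0.21 in untreated and -2.54 ± 0.24 in T-PNU libraries. Among the trastuzumab libraries A3 stood out for this gap (-1.78), while the other 5 lay between -2.73 and -2.63. These 2 gaps were chosen after their values were seen.

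T-PNU and T-DM1 were compared directly over the same 12 libraries, which left out the untreated group and its outlying samples. With the spread estimated from 24 libraries, Aim2 and Ifi207 were higher under T-PNU (12.4% of all genes were) and Ifi213 was lower (17.4%). Aim2 was higher by 0.68 ± 0.13 (adjusted p = 0.00161), and all 6 T-PNU libraries (10.52 to 10.95) were above all T-DM1 libraries, as for 5.45% of all genes. Ifi207 was higher by 0.70 ± 0.21 (adjusted p = 0.0181), with overlap only at C2 (13.47) and H3 (13.50). Ifi213 was lower by -1.04 ± 0.22 (adjusted p = 0.00253), with every T-PNU library below every T-DM1 library, as for 7.73% of all genes. Mndal missed the threshold with 24 libraries (0.26 ± 0.10, adjusted p = 0.0533) and passed it on the 20 (adjusted p = 0.0286), where 3 members rose (19.8% of all genes) and 1 fell (20.1%). For Ifi205 the difference was -0.01 with a 95% confidence interval from -0.47 to 0.44, and for Ifi208 0.31 with an interval from -0.16 to 0.78. At these interval widths, the data leave room for differences of either sign in both genes. The composition markers differed in this comparison as well with 24 libraries. Ptprc was higher under T-PNU (0.76, adjusted p = 0.00569), and Krt8 (-0.96, adjusted p = 0.00434) and Col1a2 (-1.36, adjusted p = 0.00226) were lower. Of the 8 tumor and stroma markers, 4 were lower and 3 higher. The part of composition in these members' differences was not tested.

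**Figure D4:**
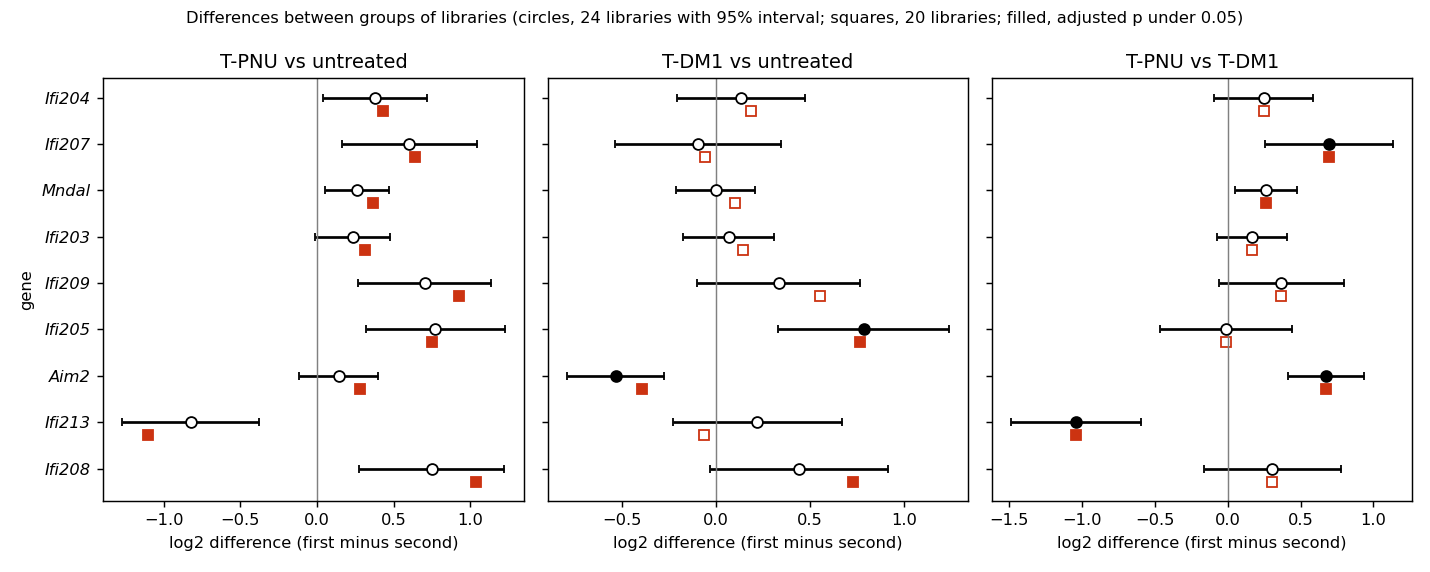
Log2 difference (x axis, first group minus second) of each member (y axis) in 3 comparisons, as circles with 95% confidence intervals for 24 libraries and squares for 20, filled where the adjusted p was under 0.05. The interval of Ifi213 lies below 0 for T-PNU against untreated and against T-DM1, and the T-DM1 panel shows Aim2 and Ifi205 on opposite sides of 0.

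Trastuzumab alone gave small differences from untreated mice, from -0.16 for Aim2 to 0.32 for Ifi205, and no member passed. In that comparison 0.259% of all genes passed with 24 libraries and 0% with 20, where limma gave 0 genes after adjustment and 865 at an unadjusted p under 0.05. T-PNU was then set against trastuzumab, the antibody without the payload, at doses that differ. With 24 libraries no member passed (0.00588% of all genes, 1 gene), although the T-PNU libraries lay above all trastuzumab libraries for Aim2, Ifi209 and Mndal, as they did for 0.894% of all genes. The differences were 0.30 ± 0.13 for Aim2, 0.60 ± 0.21 for Ifi209 and 0.29 ± 0.10 for Mndal. On the 20 libraries 5 members rose (Aim2, Ifi207, Ifi208, Ifi209 and Mndal; 14.6% of all genes) and Ifi213 fell by 1.02 on the log2 scale (13.5%). With sample weights 5 members passed (13.3% of all genes in either direction).

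The other genes of the cluster with values were Ifi202b, Ifi211, Ifi214 and, in a row with no symbol that GENCODE names Ifi206. Ifi202b encodes a HIN protein without a pyrin domain that is known as an inhibitor of Aim2. It differed by 0.25 ± 0.18 between T-PNU and untreated mice (adjusted p = 0.363) and did not pass on the 20 libraries either (0.23, adjusted p = 0.269). Ifi206 and Ifi214 showed the largest differences of the cluster under T-PNU, 0.90 ± 0.24 and 0.85 ± 0.23 (adjusted p = 0.0665 for both), and on the 20 libraries they rose by 1.20 and 1.1 (adjusted p = 0.0026 and 0.00321). Under T-DM1 they differed from untreated mice by 0.69 and 0.57 with 24 libraries (adjusted p = 0.0859 and 0.13). On the 20 libraries both rose under T-DM1 (0.99 and 0.83, adjusted p = 0.0254 and 0.0444). Between T-PNU and T-DM1 they differed by 0.21 and 0.27 (adjusted p = 0.52 and 0.363). Ifi211 differed by 0.32 ± 0.15 between T-PNU and untreated mice (adjusted p = 0.176), but 61.7% of its read-length windows occur in other genes, mostly Ifi205. The Ifi206 promoter window was 99.3% identical to that of Ifi208 over 281 aligned bases, and Ifi206, like Ifi208, went opposite to Ifi213 under T-PNU. Of the 5 pseudogenes with values, Ifi203-ps and Gm38050 had r values of 0.91 with the members' mean.

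Across the 24 libraries most members varied together. Pearson's r between pairs ranged from -0.68 to 0.92 with a median of 0.61 over 36 pairs, and after removal of the group means the median was 0.67. The closest pair was Ifi203 and Ifi204 (0.92). Ifi205 and Ifi207 were also most alike to Ifi204 (0.86 and 0.88), Ifi208 to Ifi209 (0.88), and Ifi209 and Mndal to each other (0.90). Aim2 was most alike to Ifi207 (0.73). Ifi213 was the least alike partner of all 8 others, from -0.10 with Ifi205 to -0.68 with Ifi208. After removal of the group means its r was -0.75 with Ifi208, -0.46 with Aim2 and -0.44 with Ifi209, whereas it was 0.06 with Ifi203, 0.04 with Ifi204 and 0.11 with Ifi205. All points share the 24 libraries and their normalization.

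**Figure D5:**
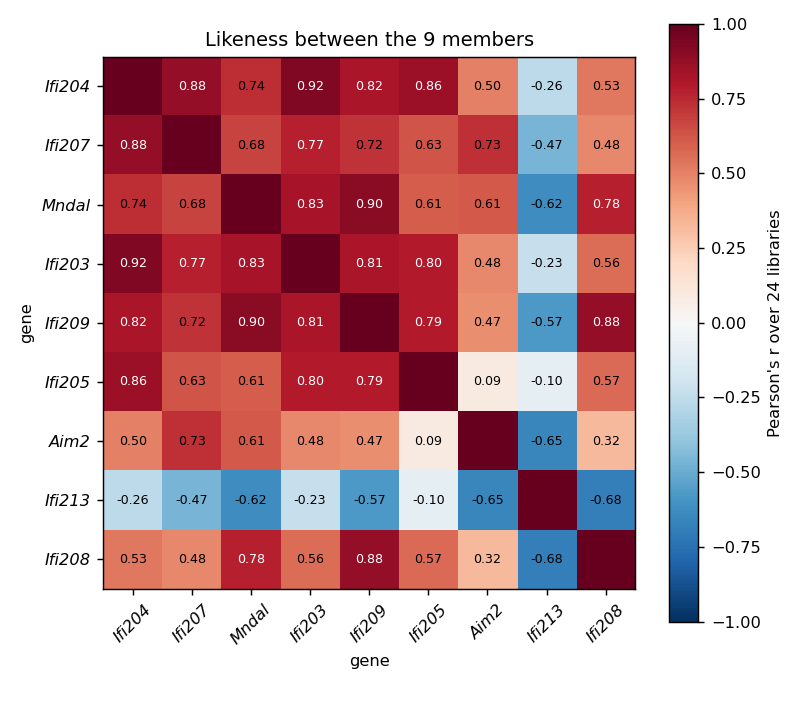
Pearson's r (color and printed value) between each pair of the 9 members, named on both axes in order of level per length, over 24 libraries. The Ifi213 row and column are negative throughout (-0.10 to -0.68), and the other pairs are positive.

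The genes most like the members' mean were then ranked. Of 14570 genes with a symbol, the 10 with the highest Pearson's r over 24 libraries were Phf11b (0.97), Ifi44 (0.97), Phf11a (0.96), Ms4a4c (0.96), Il15 (0.96), Ifi44l (0.96), Gm5431 (0.95), Trim30d (0.95), Nt5c3 (0.95) and A530064D06Rik (0.95). Ifi44 and Ifi44l are interferon-stimulated genes, and Il15 encodes a cytokine that sustains NK and CD8 T cells. The same 10 genes came out of the 20 libraries, and 8 of them after removal of the group means. Without C1, their r values lay between 0.94 and 0.97.

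The interferon pathway around the family was read from lists drawn up with earlier results of these data known. For T-PNU against untreated mice, 0.188% of all genes passed with 24 libraries, and 15.3% rose and 15.7% fell on the 20. For T-DM1 against untreated mice, 4.11% rose with 24 libraries and 0.906% on the 20. These shares stand beside the counts for this and the following lists. Of 24 type I interferon-stimulated genes, none passed for T-PNU against untreated mice with 24 libraries and 21 rose on the 20, and all 24 had positive differences in both (median 0.58 and 0.66). With 24 libraries the differences ran from 0.10 for Isg20 to 0.82 for Irf7. All 24 were likewise positive under T-DM1 in both sets (median 0.35 and 0.46). There, 3 rose with 24 libraries and 4 on the 20, and the extremes were Ifih1 (0.07) and Irf7 (0.73, adjusted p = 0.0383). None of the 24 passed under trastuzumab in either set, and with 24 libraries 23 were positive, with a median of 0.15. Set directly against T-DM1, T-PNU had a median of 0.24 for this list. With 24 libraries 0 were higher under T-PNU (12.4% of all genes were) and 1, Isg20, was lower (17.4%). On the 20 libraries 1 was higher (19.8% of all genes) and 1 lower (20.1%). Of 21 genes induced by interferon-γ, none passed for T-PNU with 24 libraries and 11 rose on the 20, with a range from -0.13 for Cxcl9 to 0.93 for Gbp6. None of these 21 passed for T-DM1 against untreated mice in either set, with a range from -0.52 for Cxcl9 to 0.50 for Cxcl11. The median of this list was 0.38 for T-PNU and 0.02 for T-DM1. For trastuzumab against untreated mice it was 0.26, with all 21 differences positive and none passing. T-PNU against trastuzumab had a median of 0.14, with 0 passing with 24 libraries and 4 higher on the 20. Directly between T-PNU and T-DM1, 3 of the 21 were higher under T-PNU with 24 libraries (12.4% of all genes were) and 10 with 20 (19.8%).

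Among the listed factors of the interferon response and of myeloid cells, Irf8 (0.34), Irf1 (0.28) and Spi1 (0.22, the gene of PU.1) had positive differences for T-PNU against untreated mice that did not pass with 24 libraries, and 7 of the 8 factors listed rose on the 20, with Spi1 as the exception. For T-DM1 only Irf7 passed, while Irf1 (-0.35) and Irf8 (-0.20) had negative differences. Irf1 and Irf8 were higher under T-PNU than under T-DM1 with 24 libraries (0.63 and 0.54, adjusted p = 0.0081 and 0.0244). Of the 6 interferon ligands and receptors, none passed against untreated mice with 24 libraries. On the 20 libraries, Ifng (1.05, adjusted p = 0.00873, compared with 0.39 on the 24) and Ifngr1 (0.89, adjusted p = 0.0102) rose under T-PNU, and none passed under T-DM1. Under trastuzumab, Ifng differed from untreated mice by 0.39 with 24 libraries and 0.86 on the 20, and did not pass. Between T-PNU and trastuzumab, Ifng differed by 0.003 with 24 libraries and 0.19 on the 20, and Ifngr1 by 0.44 and 0.79. With 24 libraries the smallest and largest differences of the 6 from untreated mice were Ifnb1 (0.01) and Ifngr1 (0.57) for T-PNU, and Ifng (-0.47) and Ifnb1 (0.21) for T-DM1.

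The partners of Aim2 in the inflammasome had small differences between T-PNU and untreated mice. For T-PNU against untreated mice, Pycard differed by 0.08, Casp1 by 0.20, Gsdmd, which forms the pyroptotic pore, by 0.11, Il18 by 0.24 and Il1b by -0.07, and none of these 5 passed with 24 or 20 libraries. The list of 15 inflammasome genes ran from Il1r1 (-0.58) to Il18bp (0.78, a decoy receptor for IL-18). None passed with 24 libraries, and 4 rose and 1 fell on the 20. For T-DM1 none of the 15 passed in either set, and the range was from Nlrp1b (-0.50) to Ninj1 (0.24). Directly between T-PNU and T-DM1, where Aim2 was higher, 5 of the 15 were higher with 24 libraries (12.4% of all genes) and 1 lower (17.4%). With 20 libraries, 7 were higher (19.8%) and 1 lower (20.1%). Among 17 other genes of cytosolic DNA sensing, the cGAS gene Mb21d1 (-0.002) and the STING gene Tmem173 (-0.001) had differences near 0 for T-PNU against untreated mice. Tlr9, an endosomal DNA receptor, passed against untreated mice with 24 libraries under T-PNU (0.72, adjusted p = 0.0497) and T-DM1 (0.53, adjusted p = 0.0411). Under trastuzumab, Tlr9 differed by 0.65 with 24 libraries without passing (adjusted p = 0.062), and it differed by 0.07 between T-PNU and trastuzumab. On the 20 libraries, 4 of the 17 (Tlr9, Samhd1, Zbp1 and Ikbke) rose and 1 (Enpp1) fell for T-PNU against untreated mice. The lowest values of this list against untreated mice with 24 libraries were Enpp1 (-0.41) for T-PNU and Rnaseh2b (-0.26) for T-DM1. For T-PNU against T-DM1, Mb21d1 differed by 0.22 and Tmem173 by 0.21. Both passed on the 20 libraries (adjusted p = 0.034 and 0.0303) but not with 24. In that comparison 3 of the 17 were higher and 3 lower with 24 libraries, and 7 and 3 with 20.

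Markers of the cell types in the libraries moved with parts of the family. Ptprc was present at 14.01 to 15.52 in all 24 CD45+ libraries, and Krt8 (11.69 to 13.77) and Col1a2 (13.47 to 16.17) were also well above the median gene level of the libraries (8.73 to 8.87) in every library. Ifi207 had r = 0.93 with the mean deviation of 8 macrophage and monocyte markers (rho = 0.89, within groups 0.92), Ifi204 had r = 0.85 and Ifi205 r = 0.63, over 24 libraries. Without B1 and C1 these were 0.90, 0.74 and 0.47. The summed level of these 8 markers ranged from 17.25 to 18.87 in untreated, from 18.00 to 18.31 in trastuzumab, from 17.27 to 17.90 in T-DM1 and from 17.91 to 18.55 in T-PNU libraries. This sum was taken on the linear scale, so it follows mainly Lyz2 (mean log2 level 17.49, with Csf1r next at 14.36). For T-PNU against T-DM1, 2 of the 8 (Lyz2 and Adgre1) were higher with 24 libraries (12.4% of all genes) and 5 with 20 (19.8%), the comparison in which Ifi207 was higher. B1 was the lowest of the 24 libraries and C1 the highest for this sum, as for Ifi207. The summed level of 5 T cell markers ranged from 10.55 to 13.68 in untreated and from 11.68 to 13.95 in T-PNU libraries, and none of the 5 passed with 24 libraries while all 5 rose on the 20. The ranges for 5 B cell markers were 9.33 to 13.63 and 9.78 to 13.90, with none passing in either set. For T-PNU against untreated mice, all 8 macrophage and monocyte markers had positive differences with 24 libraries and 1 rose (Ly6c2, 1.04, adjusted p = 0.0463), and 2 rose on the 20 (Ly6c2 and Fcgr1). Ly6c2 was also higher under T-DM1 than in untreated mice (1.05, adjusted p = 0.00665, and 1.18 on the 20, adjusted p = 0.0039). It differed by -0.01 between T-PNU and T-DM1. Of the 8 markers, 2 had positive differences under T-DM1 with 24 libraries, and only Ly6c2 rose (4.11% of all genes did). Between T-PNU and untreated mice with 24 libraries, none of the 6 neutrophil, 7 dendritic cell, 3 NK cell and 2 red blood cell markers passed. On the 20 libraries 3, 4, 3 and 0 of them rose in that comparison (15.3% of all genes did). No marker was at 0, and the lowest was Ly6g with a mean of 4.32. The part of these cell types in the members' differences was not tested.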

How the data were processed

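RNA from CD45+ tumor cells of 24 mice was sequenced as stranded mRNA libraries with single reads of 81 bases. According to the submitters' processing notes and the study's methods, reads were aligned with STAR 2.4.2a to mm10 and counted with featureCounts (Subread 1.5.0), and genes averaging under 5 counts were removed. The authors deposited library-size normalized values on a log2 scale for 16996 genes (1.13 to 19.70), and which transformation they used is not given in the sources used here. Differences are therefore on the authors' scale, which may shrink those of genes with low counts. Without counts, the depth of a library is unknown and counting error could not be computed. The p-values measure the spread between mice.

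Groups were taken from the sample labels, and libraries are named by their well. All genes were fitted with limma 3.58.1 (R 4.3.3; linear model on 4 groups, moderated with a variance trend), with Benjamini-Hochberg adjustment over 16996 genes and a call at an adjusted p under 0.05. The procedure was also tested on simulated data. Correlations, levels per length and the sharing of 81-base windows were computed with Python 3.11.15 from GENCODE M21 annotation, and 16930 of the 16996 gene identifiers (99.6%) were found in it. The members and all gene lists were chosen with earlier results of these data known. The genes named were all members, other p200 genes of the cluster, the largest and smallest difference of each pathway list with its key members, and the 10 genes most like the members' mean. Alternatives were the 20 libraries of the study's heatmaps, quantile normalization, a filter on low values, the 2 compared groups alone, sample weights, no variance trend, a stricter threshold and leaving out each library. Some genes beside the cluster and some factors are not reported here.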

Additional observations from a re-analysis of the deposited data

Results flagged for a closer look

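The spread within each of 36 groups of 6 values (9 members in 4 groups) was checked with Dixon's criterion at the 95% level, which chance exceeds in about 1 in 20 groups. In 3 groups the highest library lay far from the others. Ifi209 was 11.69 in untreated C1, and the next untreated library was at 10.65. Aim2 was 11.26 in the same library, and the next was at 10.48. Under T-PNU, Aim2 was 10.95 in H1, and the next library was at 10.66.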

How the results depend on the processing

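The number of members passing for T-PNU against untreated mice was 0 with all libraries, 9 with the 20 libraries of the study's heatmaps and 8 with sample weights (34.3% of all genes), and leaving out 1 library gave 0 to 9 (9 without untreated C1 and 1 without T-PNU G1, where 221 of all 16996 genes passed upward and 788 downward). For T-DM1 against untreated mice it was 2, then 0 when only these groups were fitted, 4 with sample weights (19.4% of all genes), 0 at an adjusted p under 0.01 with a fold above 2, and 1 to 2 when 1 library was left out (1 without untreated A1, B1, D1 or F1 or T-DM1 C3, D3, F3 or H3, where Ifi205 was lost). For T-PNU against trastuzumab it was 0, then 6 with the 20 libraries, 5 with sample weights (13.3% of all genes) and 0 to 0 when 1 library was left out. For T-PNU against T-DM1 it was 3, then 1 at the strict threshold and 3 to 4 when 1 library was left out. Some differences near 0 changed sign. With the 20 libraries, Ifi213 was -0.063 and Mndal 0.102 for T-DM1 against untreated mice, and Mndal was 0.0634 for trastuzumab against untreated mice. With quantile normalization Mndal was 0.0187 for T-DM1. With sample weights Mndal was 0.0512 for T-DM1 and 0.0482 for trastuzumab, and Ifi205 was 0.0166 for T-PNU against T-DM1. The remaining sign changes came from leaving out 1 library. For T-DM1 against untreated mice, Mndal was 0.00207 without A1, 0.0788 without C1, 0.000757 without D3, 0.0241 without E3, 0.0365 without F3 and 0.0258 without G3, Ifi203 was -0.0269 without H3, and Ifi207 was 0.106 without C1 and 0.00997 without E3. For trastuzumab against untreated mice, Ifi203 was -0.00646 without D1, Ifi204 -0.0473 and Ifi207 -0.0384 without B1, and Ifi213 0.0468 without E2. In the same comparison Ifi208 was -0.00635 without A1, -0.0642 without D1, -0.0456 without F1, -0.0994 without E2 and -0.00225 without B3, and Mndal was 0.0511 without C1 and 0.00179 without G2. For T-PNU against T-DM1, Ifi205 was 0.0502 without B2, 0.0391 without C3, 0.00422 without D3 and 0.123 without H3. Of 805 values for single members under the alternatives, 717 kept direction and side of the threshold, 47 newly passed, 10 no longer passed and 31 changed sign. The cause was not tested.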
